A study of Mus musculus with 3 samples.

Results

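The 51 genes described here encode the components of the complement system and of the coagulation and fibrinolysis cascades, with their regulators and receptors. They were listed by function, not by measured values, but with earlier results of these data known. Of 18865 genes with at least 4 array probesets that name 1 gene, all 51 were among those measured. Expression came from 3 exon-type arrays, hybridised with RNA of GFP-positive cells sorted from the bone marrow of C57BL/6 mice. The nestin gene promoter drives GFP in these mice, so the sort follows the activity of the transgene and not the level of the Nes transcript. The cells were freshly isolated and untreated as far as the labels say, and the RNA was amplified before labelling. The 3 arrays form 1 group with no second condition, and neither age nor the number of animals per array is given. Whether the arrays came from separate mice is also not given, so the SD below is the spread between these samples and may be technical.

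Complement is a chain of plasma proteases and binding proteins that marks surfaces for uptake and can end in a membrane pore. The classical branch starts with C1q on antibodies, the lectin branch with sugar-binding proteins, and the alternative branch amplifies through C3 and factor B. Coagulation is a second chain of plasma proteases that ends in thrombin and fibrin, and plasmin dissolves the clot again. The liver makes most of these proteins. Macrophages are known for C1q, endothelial cells for factor VIII and tissue factor pathway inhibitor, and fibroblast-like stroma for several early complement components.

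Each gene's value was the median of its probesets on the log2 scale. With no second group, a gene was set against a background on the same array, the 95th percentile of 342 olfactory, vomeronasal and bitter taste receptor genes. This chemosensory threshold was 5.40, 5.65 and 5.60 on arrays 1, 2 and 3. The margin of a gene is its mean distance from that threshold. A gene counted as called above background where the adjusted p of a one-sided limma test was below 0.05 (Benjamini-Hochberg, over all 18865 genes). The limma test and its intervals join a gene's own spread over the arrays with a prior from all genes. That prior had 5.19 degrees of freedom, so intervals and p-values rest in large part on the spread of other genes. A stricter threshold came from 67 genes restricted to retina, lens, germ cells, exocrine pancreas and milk, at 6.98, 6.67 and 6.51. Its limma prior had 12.7 degrees of freedom. Probes differ in affinity, so the level of one gene does not rank it against another.

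As a whole the 51 genes were called about as often as any gene, and a small set of them gave a strong signal. In all 23 of 51 members (45.1%) lay above the chemosensory background, beside 51.1% of all genes. Above the stricter background lay 10 of 51 (19.6%), beside 21.5% of all genes. The median margin was 0.32 over the members and 0.52 over all genes. Both shares are near those of all genes and are no result about the list. The 10 genes were C1ra, C1s1 and C4b of the classical branch, C3 and Cfb of the alternative branch, C6 of the terminal pathway, the serpins Serping1, Serpine2 and Serpinf1, and Tfpi. By role, the calls above the chemosensory background were 5 of 7 classical, 3 of 3 alternative, 2 of 4 lectin and 1 of 7 terminal members. They were 3 of 7 regulators and receptors, 6 of 16 coagulation members and 3 of 7 members of fibrinolysis and protease inhibition. The choice of percentile sets the size of the larger count. It was 10 with the 99th percentile in place of the 95th, and those 10 were the genes named above.

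**Figure D1:**
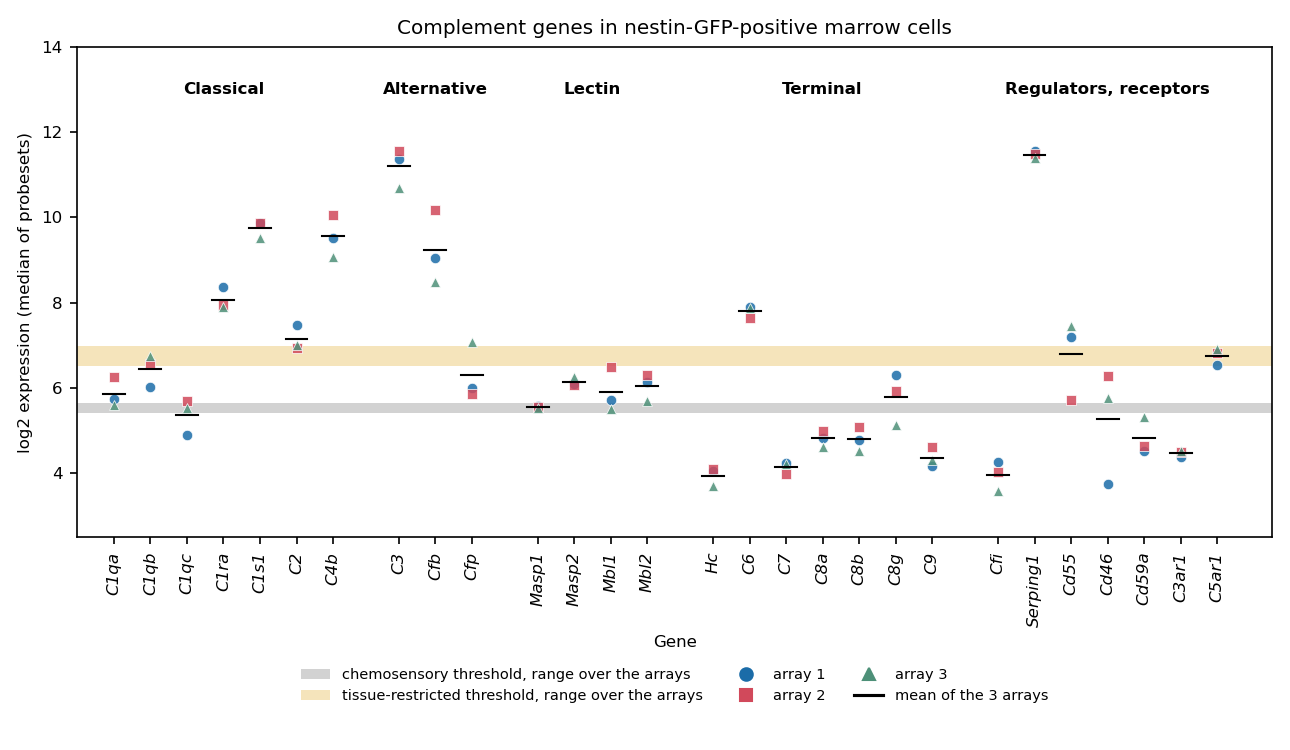
Log2 expression of the 28 complement members on arrays 1, 2 and 3 (points) with their mean (bar), in the order of the list, grouped by branch; bands show the range of each threshold over the arrays. C3 and Serping1 sit above 10.5 on every array, while Hc, C7 and C9 sit below the grey band on every array.

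The upstream sequences of 5 members that the results turn on are shown for reference. C3, C1s1 and Serpine2 had strong values on every array, and Tfpi and F8 were lowest on array 2. Each is the 250 bases before the gene's start in RefSeq (build GRCm38.p6), 5′ to 3′ on the gene's strand. Capitals mark matches to any motif searched.
C3, chr17:57228137-57228386, minus strand: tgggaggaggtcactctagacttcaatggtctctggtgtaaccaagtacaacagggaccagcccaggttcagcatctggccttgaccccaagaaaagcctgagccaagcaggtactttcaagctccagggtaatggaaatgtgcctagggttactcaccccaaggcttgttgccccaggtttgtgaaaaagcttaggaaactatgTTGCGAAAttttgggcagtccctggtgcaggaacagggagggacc
C1s1, chr6:124542360-124542609, minus strand: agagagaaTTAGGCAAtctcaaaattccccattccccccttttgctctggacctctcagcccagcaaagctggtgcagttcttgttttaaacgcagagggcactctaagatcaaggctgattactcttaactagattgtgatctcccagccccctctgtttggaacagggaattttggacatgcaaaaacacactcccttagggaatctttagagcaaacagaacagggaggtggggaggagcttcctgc
Serpine2, chr1:79858666-79858915, minus strand: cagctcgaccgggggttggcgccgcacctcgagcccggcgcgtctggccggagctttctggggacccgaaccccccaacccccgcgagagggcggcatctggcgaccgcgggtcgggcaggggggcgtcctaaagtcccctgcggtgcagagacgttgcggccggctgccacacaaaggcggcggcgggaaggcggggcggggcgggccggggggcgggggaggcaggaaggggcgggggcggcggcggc
Tfpi, chr2:84476760-84477009, minus strand: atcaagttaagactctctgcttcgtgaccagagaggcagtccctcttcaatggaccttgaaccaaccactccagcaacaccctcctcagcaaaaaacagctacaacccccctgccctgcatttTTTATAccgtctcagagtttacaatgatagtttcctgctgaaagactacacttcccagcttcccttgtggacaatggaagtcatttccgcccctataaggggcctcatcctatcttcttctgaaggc
F8, chrX:75380042-75380291, minus strand: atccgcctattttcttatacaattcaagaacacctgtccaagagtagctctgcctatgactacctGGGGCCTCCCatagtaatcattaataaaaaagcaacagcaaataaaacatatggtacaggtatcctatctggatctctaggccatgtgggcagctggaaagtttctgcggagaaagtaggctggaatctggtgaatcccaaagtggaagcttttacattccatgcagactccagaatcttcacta
The motifs searched, on both strands, were TTGCNNAA (C/EBP), TTCNNNGAA (STAT), CCCNNGGG (EBF), and TATAAA, with the interferon response and kappaB motifs by name. A C/EBP match starts 45 bases before the start of C3 and another 242 bases before that of C1s1. The match upstream of Tfpi is to TATAAA on the other strand, and that upstream of F8 is to the kappaB motif. The C/EBP letters were present in 6 of the 39 member windows in the table (15.4%), beside 9.55% of 27025 windows in all. The share was 10.3% against 7.18% for the STAT motif, 2.56% against 3.04% for the interferon motif and 5.13% against 7.01% for kappaB. It was 15.4% against 11.7% for EBF and 10.3% against 13% for TATAAA. Where a gene had several windows, the first in the table was used. These matches describe letters only.

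The protease genes C1ra and C1s1 of the classical branch gave a strong signal, while its recognition molecule C1q lay near background. C1s1, the protease that cleaves C4 and C2, had 9.86, 9.88 and 9.51 (mean 9.75 ± 0.21, SD, n = 3) on arrays 1, 2 and 3. Its margin was 4.19 (95% interval 3.75 to 4.64, adjusted p = 1.66e-06, limma). C1ra, the protease that activates C1s, had 8.37, 7.94 and 7.91 (mean 8.07 ± 0.26, SD, n = 3), with a margin of 2.52 (2.04 to 3.0, adjusted p = 1.87e-05, limma). All 3 arrays of both genes lay above both thresholds. C4b, whose product forms the convertase with C2, had 9.53, 10.07 and 9.07 (mean 9.56 ± 0.50, SD, n = 3) and a margin of 4.01 (3.48 to 4.53). C2 had 7.48, 6.93 and 7.01, a margin of 1.59 over the chemosensory background, and missed the stricter one (adjusted p = 0.149, limma).

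Some of these values share sequence with a close copy. C4b has 18 probesets that name it alone, and 58 more name both C4b and C4a. The shared probesets had medians of 9.31, 9.77 and 9.04, in the same order over the arrays as those of C4b alone. The 12 probesets that name C4a alone gave 6.30, 6.54 and 6.25, and C4a was called (margin 0.81, adjusted p = 0.00271, limma). C1s1 shares 11 probesets with its copy C1s2, with medians of 10.97, 11.08 and 10.74, and the 5 that name C1s2 alone gave 5.15, 5.79 and 4.17. C1s2 was not called (margin -0.51). The signal of a shared probeset cannot be divided between the copies.

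The 3 chains of C1q gave low values on all arrays. C1qa had 5.75, 6.25 and 5.61, C1qb had 6.03, 6.56 and 6.74, and C1qc had 4.90, 5.70 and 5.53. Of the 3, C1qb was called (margin 0.89, adjusted p = 0.00236, limma). C1qa was not (margin 0.32, adjusted p = 0.126, limma), and neither was C1qc (margin -0.18). The calls differ although the genes are neighbours and their intervals overlap, from 0.46 to 1.33 for C1qb and from -0.13 to 0.76 for C1qa. None of the 6 probesets of C1qb lay above the probeset threshold on all 3 arrays. Of 13 macrophage markers, 1 was called (7.69%, beside 51.1% of all genes), Mertk, with 6.34, 7.45 and 7.67. Mrc1, also known from sinusoidal endothelium, had 8.39, 4.44 and 9.15, above both thresholds on arrays 1 and 3, and was not called (adjusted p = 0.0610, limma). The defining markers were low, with Adgre1 (F4/80) at 4.33, 4.32 and 4.09, Csf1r at 4.80, 4.53 and 5.31, and Cd68 at 5.74, 5.70 and 5.83. The part of macrophages in the C1q values was not tested.

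In the alternative branch C3 and Cfb gave a strong signal. C3, the central component on which all branches meet, had 11.38, 11.56 and 10.69 (mean 11.21 ± 0.46, SD, n = 3). Its margin was 5.66 (95% interval 5.13 to 6.19, adjusted p = 1.21e-06, limma), and 42 of its 44 probesets lay above the probeset threshold on all 3 arrays. Cfb, the protease of the alternative convertase, had 9.06, 10.17 and 8.48 (mean 9.24 ± 0.86, SD, n = 3) and a margin of 3.69 (2.98 to 4.39, adjusted p = 1.93e-05, limma). Both were highest on array 2 and lowest on array 3. Cfp, the gene of properdin, which stabilises that convertase and is known from neutrophils and monocytes, had 6.00, 5.85 and 7.08. It was called (margin 0.76, adjusted p = 0.0228, limma), but the call was lost without array 1 (margin 0.84, adjusted p = 0.0719) and without array 3 (margin 0.40, adjusted p = 0.163). Of the 8 neutrophil markers measured, 5 were also highest on array 3, among them S100a8 (9.55, 9.56 and 10.32). Another 2 were highest on array 1 and 1 on array 2, and over all 18865 genes 6085 were highest on array 3. The medians of that list were 6.26, 6.75 and 7.27, and its part in the value of Cfp was not tested.

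Lectin-branch genes lay close to the threshold. Masp1 and Masp2 encode the proteases bound to mannose-binding lectins, and Mbl1 and Mbl2 encode the lectins. Masp2 had 6.10, 6.08 and 6.25 (margin 0.59, adjusted p = 0.0120, limma), and Mbl2 had 6.15, 6.31 and 5.69 (margin 0.50, adjusted p = 0.0403, limma). Masp1, with 5.58, 5.56 and 5.52, sat at the threshold (margin 0.00), and Mbl1 had 5.71, 6.49 and 5.50 (adjusted p = 0.142, limma). The call of Masp2 was lost without array 3 (adjusted p = 0.0634), and that of Mbl2 without array 1 (0.151) and without array 2 (0.129). By limma 0 of the 4 lay above the stricter background. Before adjustment 0 had a p below 0.05, and 0 exceeded that threshold on each of the 3 arrays. Only 5 of their 54 probesets (9.26%) lay above the probeset threshold on all arrays, beside 25.8% of all 311953 probesets of measured genes.

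The terminal pathway was at background except for C6. The products of Hc (C5), C6, C7, C8a, C8b, C8g and C9 assemble into the membrane attack complex. C6 had 7.91, 7.65 and 7.87 (mean 7.81 ± 0.14, SD, n = 3), with a margin of 2.26 (95% interval 1.82 to 2.69, adjusted p = 1.92e-05, limma), and 11 of its 18 probesets lay above the probeset threshold on all arrays. Hc had 4.05, 4.09 and 3.69, C7 4.25, 3.97 and 4.22, and C9 4.18, 4.61 and 4.30. C8a (4.83, 5.0 and 4.62) and C8b (4.79, 5.09 and 4.51) were also below the threshold on every array. C8g had 6.30, 5.94 and 5.14 and was not called (margin 0.24, adjusted p = 0.334, limma), but it was called with the mean of probesets in place of the median (adjusted p = 0.00587). Of the 45 probesets of Hc, 2 lay above the probeset threshold on all 3 arrays. A value at background does not show that a transcript is absent.

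Among the regulators, Serping1 gave a strong and even signal. Serping1, the C1 inhibitor, which blocks C1r, C1s and the contact proteases, had 11.55, 11.48 and 11.40 (mean 11.48 ± 0.08, SD, n = 3). Its margin was 5.92 (95% interval 5.51 to 6.34, adjusted p = 9.37e-07, limma), and all 10 of its probesets lay above the probeset threshold on all arrays. Its range of 0.15 over the arrays exceeded that of 7.9% of all genes. Cfi, the protease that inactivates C3b and C4b, was below the threshold on all arrays (4.27, 4.02 and 3.58).

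The membrane regulators differed between arrays. Cd55, decay-accelerating factor, had 7.20, 5.72 and 7.46 (mean 6.79 ± 0.94, SD, n = 3) (margin 1.24, adjusted p = 0.0105, limma), and the call was lost without array 1 (adjusted p = 0.0995). Cd46, a cofactor of factor I that mice are known to express mainly in testis, had 3.75, 6.28 and 5.77 (mean 5.27 ± 1.34, SD, n = 3). Its range of 2.53 exceeded that of 99.5% of all genes, and array 1 was lowest in 12 of its 14 probesets. Cd46 was not called (margin -0.28), and arrays 2 and 3 alone lay above their thresholds. Cd59a, the inhibitor of the terminal complex, had 4.51, 4.64 and 5.32. Of the receptors for complement fragments, C5ar1 was called with 6.53, 6.83 and 6.91 (margin 1.20, adjusted p = 0.000326, limma). C3ar1 was below the threshold with 4.37, 4.49 and 4.53.

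The coagulation factors were mostly at background, and the inhibitor Tfpi gave a strong but uneven signal. Prothrombin (F2), F5, F9, F10, F11, F13a1 and tissue factor (F3) had negative margins, from -2.47 for F9 to -0.36 for F3. The margin of F7, the partner of tissue factor, was 0.22 (adjusted p = 0.215, limma). F12, which starts the contact pathway, was called with 6.05, 6.58 and 6.23 (margin 0.74, adjusted p = 0.00467, limma). The call of F12 was lost with at least 2 probesets per gene (margin 0.35, adjusted p = 0.086, limma). Of 11 hepatocyte markers limma called 0, beside 51.1% of all genes. Before adjustment 0 had a p below 0.05, and 0 exceeded the threshold on each of the 3 arrays. Of these, Alb had 4.13, 4.89 and 5.42, Apob 4.0, 4.47 and 3.97, and Ttr 5.63, 5.49 and 5.69.

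Tfpi, which blocks the complex of factor VIIa and tissue factor, had 10, 8.05 and 10.16 (mean 9.40 ± 1.18, SD, n = 3). Its margin was 3.85 (95% interval 2.87 to 4.83, adjusted p = 8.17e-05, limma), and every array lay above both thresholds. Its relative Tfpi2 had 7.59, 6.62 and 8.01 (margin 1.86, adjusted p = 0.000552, limma) and missed the stricter background (adjusted p = 0.0537, limma). F8, the cofactor of factor IX, had 7.79, 4.90 and 8.14 (mean 6.94 ± 1.78, SD, n = 3). On arrays 1 and 3 it was above both thresholds, and on array 2 below both. F8 was called narrowly (margin 1.39, adjusted p = 0.0484, limma). Without array 1 the margin was 0.89 (adjusted p = 0.291, limma) and without array 3 it was 0.82 (0.155), so the call was lost. Without array 2 it was 2.46 (3.88e-12), but leaving out the array on which F8 was lowest raises the margin by construction. In that fit of 2 arrays the limma prior had 62.2 degrees of freedom, against 5.19 with all arrays. Its p therefore rests mostly on the spread of other genes, more so than with all arrays.

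The thrombin receptor gene F2r was called with 7.35, 6.96 and 7.23 (margin 1.63, adjusted p = 0.000133, limma). F2rl1, which encodes the related receptor PAR2, was below the threshold on all arrays (5.38, 4.65 and 4.68). Heparin cofactor II (Serpind1) was called with 6.44, 6.00 and 6.31 (margin 0.70, adjusted p = 0.0104, limma), a call lost without array 1 (adjusted p = 0.0503). Antithrombin (Serpinc1) sat at the threshold with 5.71, 5.53 and 5.40 (margin -0.01).

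**Figure D2:**
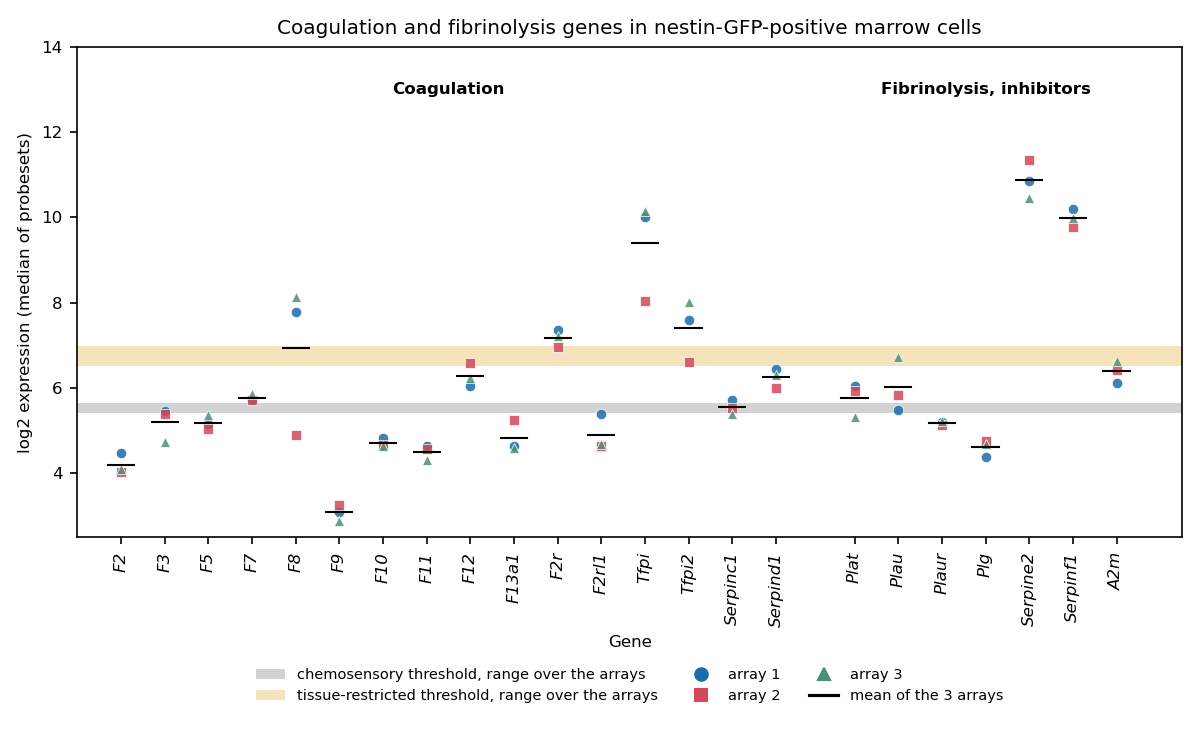
Log2 expression of the 16 coagulation members and the 7 members of fibrinolysis and protease inhibition on arrays 1, 2 and 3 (points) with their mean (bar), in the order of the list; bands show the range of each threshold over the arrays. Tfpi, Tfpi2 and F8 have array 2 well below the other arrays, while F2 and F9 sit below the grey band on every array.

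In fibrinolysis and protease inhibition, 2 secreted serpins gave a strong signal and the plasminogen activators did not. Serpine2, protease nexin-1, which inhibits thrombin, urokinase and tissue plasminogen activator, had 10.85, 11.34 and 10.45 (mean 10.88 ± 0.44, SD, n = 3). Its margin was 5.33 (95% interval 4.83 to 5.83, adjusted p = 1.21e-06, limma), and all 13 probesets lay above the probeset threshold on all arrays. Serpinf1, pigment epithelium-derived factor, a serpin without protease-inhibiting activity, had 10.21, 9.78 and 9.98 (mean 9.99 ± 0.22, SD, n = 3) (margin 4.44, adjusted p = 1.65e-06, limma). A2m, a broad protease trap, was called with 6.12, 6.43 and 6.63 (margin 0.84, adjusted p = 0.00236, limma).

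Plat, the gene of tissue plasminogen activator, had 6.05, 5.92 and 5.32 and was not called (margin 0.21, adjusted p = 0.312, limma). Plau, the gene of urokinase, had 5.49, 5.83 and 6.72 (margin 0.46, adjusted p = 0.0916, limma). Without array 2 Plau was called (margin 0.60, adjusted p = 0.0390, limma), a p that also rests mostly on the spread of other genes. Without array 3 its margin was 0.13 (0.520). The urokinase receptor Plaur (5.20, 5.13 and 5.23) and plasminogen (Plg, 4.39, 4.75 and 4.69) were below the threshold on all arrays.

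Within a gene the probesets read different stretches of its transcripts, and they spread far more than the arrays did. Of the members' 809 probesets, 209 (25.8%) lay above the probeset threshold on all 3 arrays. That is the same share as over all measured genes. The share was 61 of 78 probesets (78.2%) in the alternative branch and 40 of 80 in the classical branch. C3 alone supplied 44 of the 78 and 42 of the 61, while Cfp had 1 of 11 above. It was 19 of 140 (13.6%) in the terminal pathway and 32 of 245 (13.1%) in coagulation. The mean of a probeset over the arrays ran from 4.97 to 12.57 within C3 and from 1.98 to 11.71 within C1s1. Probesets of a gene share the same RNA and are not replicates.

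**Figure D3:**
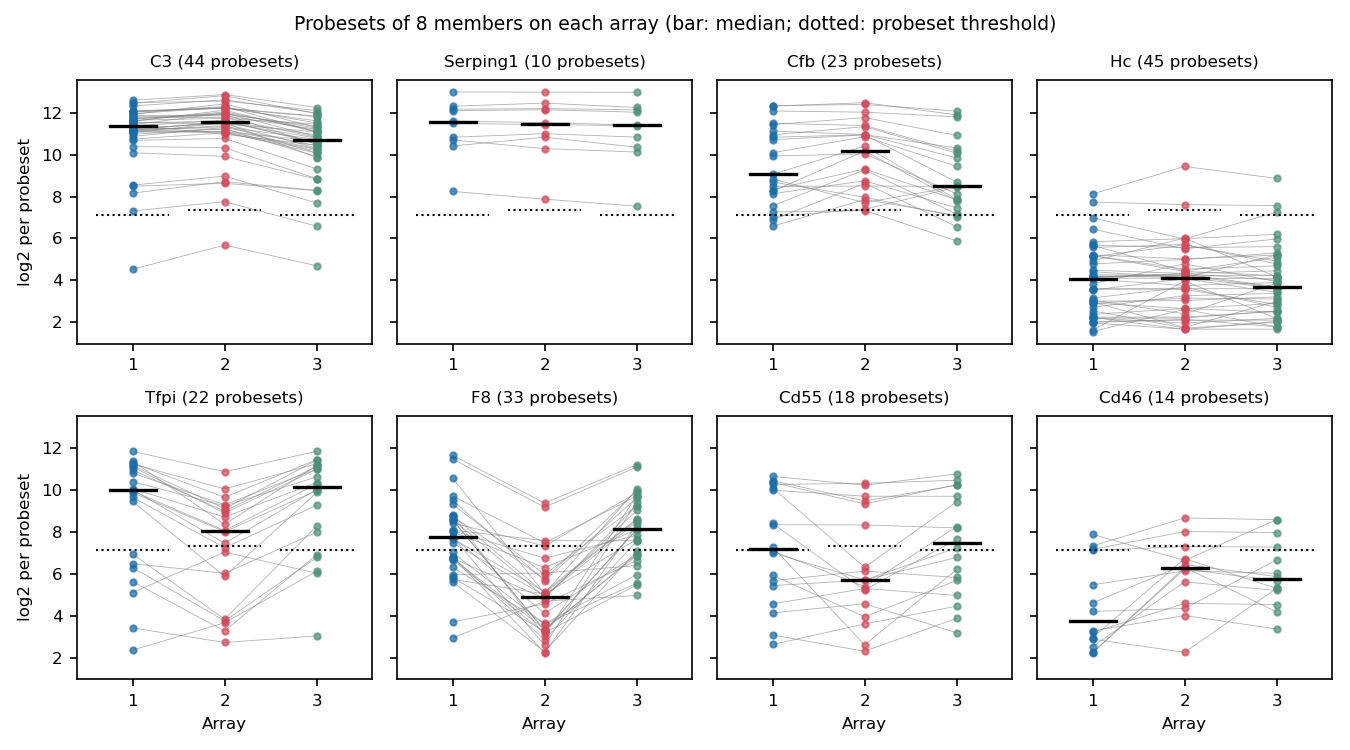
Log2 values of every probeset of 8 members on arrays 1, 2 and 3 (points, joined per probeset), with the median of each array (bar) and the probeset threshold (dotted), which was the 95th percentile of 2029 probesets of chemosensory genes. Nearly all C3 and all Serping1 probesets lie above the dotted line, those of F8 and Tfpi dip on array 2, and most of Cd46 is lowest on array 1.

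Several members differed between arrays beyond what most genes did. The median range of a gene over the 3 arrays was 0.51 over all genes and 0.53 over the members. In 8 members the range was within the top 10% of all genes, namely F8, Cd46, Tfpi, Cd55, Cfb, Tfpi2, Plau and Cfp. Each array holds 1 sample, so these differences have no test.

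Of these 8, F8, Tfpi, Cd55 and Tfpi2 were clearly lowest on array 2. Array 2 minus the mean of arrays 1 and 3 was -3.06 for F8, -2.03 for Tfpi, -1.61 for Cd55 and -1.18 for Tfpi2. Array 2 was lowest in 30 of 33 probesets of F8, 20 of 22 of Tfpi and 5 of 7 of Tfpi2. In Cd55 the probesets were divided, with array 2 lowest in 11 of 18 and highest in 4. All 13 endothelial markers were lowest on array 2 too. Cdh5 had 9.14, 6.05 and 9.58, Pecam1 8.92, 6.73 and 8.46, and Emcn 8.50, 6.75 and 9.16, and the median deviation of the list was 0.29, -1.13 and 0.73. No marker is listed at 0, but no named probeset was at 0 on any array. Of the 13, 9 were called on their mean over the arrays (69.2%, beside 51.1% of all genes). On array 2 they ran from 4.89 to 6.75, beside thresholds of 5.65 and 6.67 there. Only 8 of the 13 exceeded the chemosensory threshold on every array. Fewer endothelial cells and less RNA per cell cannot be told apart here, and the part of endothelial cells in the 4 genes was not tested. Some markers on other lists were lower on array 2 as well, and others were higher. Array 2 minus the mean of arrays 1 and 3 was -4.33 for Mrc1 (macrophage list), -1.89 for Ppbp (megakaryocyte) and -1.53 for Ngp (neutrophil). The same difference was 0.45 for Mertk (macrophage), 0.29 for Pf4 (megakaryocyte) and 1.12 for Fcnb (neutrophil). Over all genes array 2 was lowest in 34.0%. Of the lists, array 2 was lowest in 4 of 13 macrophage, 3 of 7 megakaryocyte, 3 of 8 neutrophil and 6 of 10 pan-leukocyte markers. Their part was not tested either. Without array 2 the members above background again numbered 23, with Mbl2 lost and Plau gained, beside 9513 genes over all. Those above the stricter background numbered 12. These calls without array 2 also rest mostly on the spread of other genes.

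Another order, with array 2 highest and array 3 lowest after each array's median shift was removed, was seen in 13 of 51 members (25.5%), beside 16.3% of all genes. It has no test, and it includes members at background such as Hc, C8a, C8b and F9. Of the 10 members above both backgrounds, C1s1, C4b, C3, Cfb and Serpine2 had it. Array 2 minus the mean of arrays 1 and 3 was 0.20 for C1s1, 0.53 for C3, 0.77 for C4b, 1.4 for Cfb and 0.68 for Serpine2. The perivascular stroma markers had median deviations of -0.01, 0.10 and -0.11 on arrays 1, 2 and 3.

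**Figure D4:**
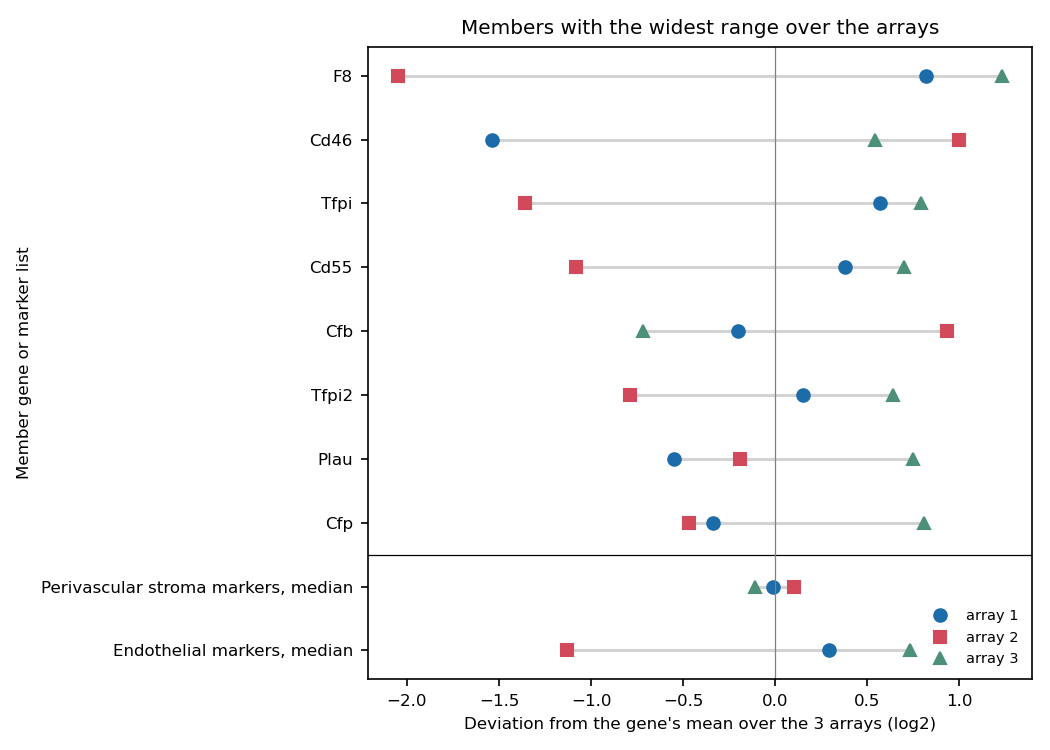
Deviation of each array from the gene's mean over arrays 1, 2 and 3, in log2 units, with each array's median over all genes removed, for the 8 members with a range in the top 10% of all genes and for the medians of 2 marker lists. F8, Tfpi, Cd55 and Tfpi2 have array 2 far to the left, as the endothelial median does, while Cfb has array 2 to the right and Cd46 has array 1 to the left.

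Further genes of the same cascades, outside the 51, were also measured. Of 22 other complement genes measured, 10 were called (45.5%) and 5 lay above the stricter background (22.7%). Over all genes these shares were 51.1% and 21.5%. None of these further lists was tested as a set. Clu (clusterin), a fluid-phase inhibitor of the terminal complex, had 10.86, 10.76 and 10.29, and the scavenger collectin Colec12 had 10.33, 10.05 and 9.84. C1qbp, the gene of a C1q-binding protein known mainly from mitochondria, had 8.50, 8.49 and 8.91. Cr1l, which encodes the rodent membrane regulator Crry, had 8.67, 8.29 and 8.77 and a margin of 3.02 (adjusted p = 6.69e-06, limma). The macrophage receptor gene Vsig4 had the lowest margin, -1.49.

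Of 22 other coagulation genes, 8 were called (36.4%, beside 51.1% of all genes). All 8 also lay above the stricter background, beside 21.5% of all genes. The kininogen genes Kng1 (10.40, 10.71 and 10.20) and Kng2 (10.63, 10.54 and 10.55), whose products release bradykinin, had margins of 4.88 and 5.02. They are neighbouring copies, so their signals may not be separate. Vkorc1, the vitamin K reductase, had 10.36, 10.71 and 10.40, and Pros1 (protein S), an anticoagulant cofactor, had 9.41, 9.49 and 9.79. The fibrinogen gene Fgg, with 3.30, 3.38 and 3.33, had the lowest margin, -2.22. Thbd (thrombomodulin, 8.55, 7.49 and 8.89) and Cd93 (of the complement list, 9.11, 7.10 and 9.26), neighbours known from endothelium, were lowest on array 2. Vwf, the von Willebrand factor gene, had 5.89, 5.98 and 5.90, and the protein C receptor gene Procr 6.13, 5.99 and 5.82. These genes, also known from endothelium, were not lowest on array 2, and neither was called. All 4 were singled out after their values were seen.

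Of 10 other fibrinolysis genes, 5 were called, beside 51.1% of all genes. Above the stricter background lay 4 of the 10, beside 21.5% of all genes. Lrp1, the receptor that clears protease and serpin complexes, had 8.50, 9.02 and 8.57, and thrombospondin-1 (Thbs1) had 8.41, 8.16 and 8.21. The plasminogen-binding proteins encoded by Anxa2 (7.99, 8.23 and 8.34) and Plgrkt (7.45, 8.02 and 7.90) were also called. Hrg, a plasma glycoprotein of the liver, had the lowest margin, -1.48.

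**Figure D5:**
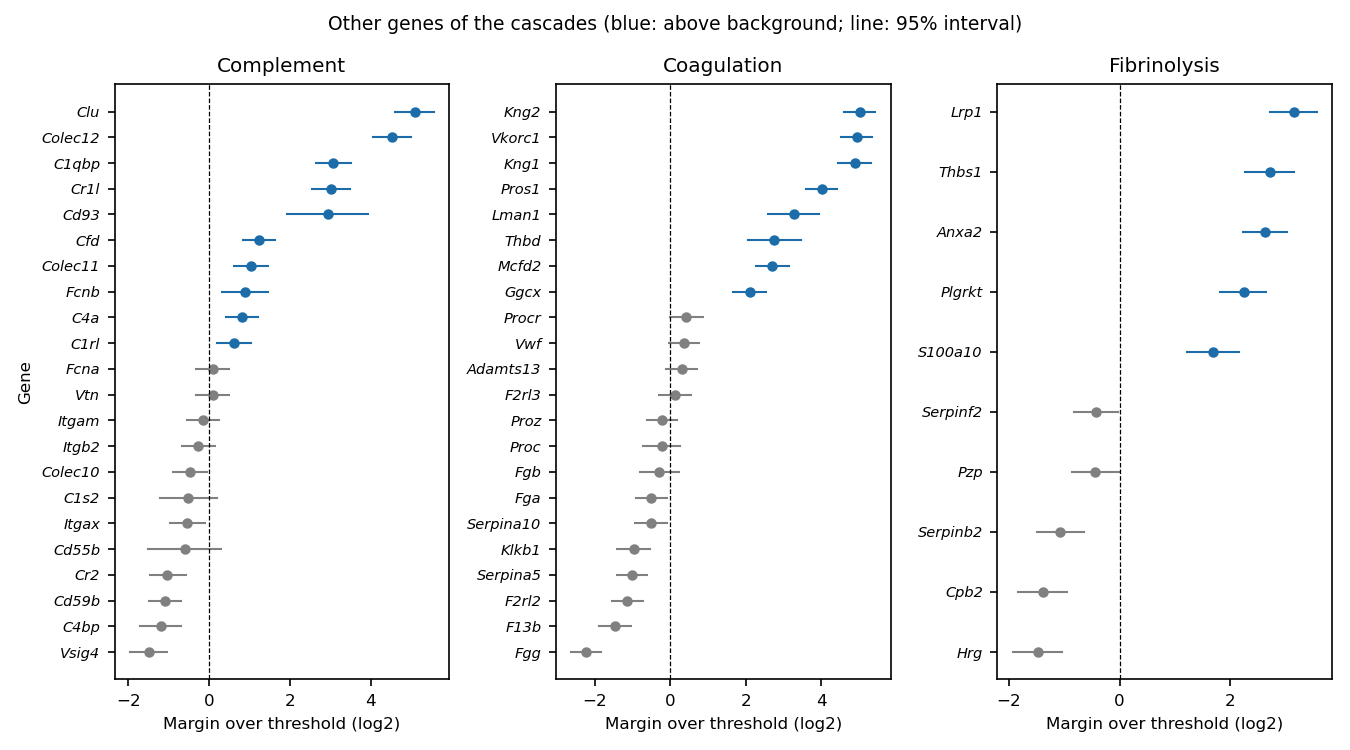
Margin over the chemosensory threshold (log2, mean of arrays 1, 2 and 3 with its 95% interval) of the other measured genes of the 3 cascades, sorted by margin, in blue where called and grey where not. Clu, Kng1, Kng2 and Vkorc1 lie near 5, and Fgg, F13b and Vsig4 lie below 0; probe affinity contributes to the order.

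The labelled population was checked against its markers. All 9 perivascular stroma markers lay above both backgrounds, with Cxcl12 at 11.77, 11.89 and 11.61, Lepr at 11.39, 11.50 and 11.27, Kitl at 10.46, 10.47 and 10.93, Pdgfra at 9.04, 9.77 and 9.21, and Pdgfrb at 10.02, 10.04 and 9.44. Nes itself was at the threshold (5.97, 5.21 and 5.56; adjusted p = 0.719, limma). Of the pan-leukocyte markers 2 of 10 were called (20.0%), and of the megakaryocyte markers 2 of 7 (28.6%), beside 51.1% of all genes. Ptprc (CD45, 4.54, 4.37 and 5.14), Lcp1 (5.60, 5.01 and 6.77) and Laptm5 (5.91, 5.26 and 5.62) were not called. Lcp2 (8.98, 8.48 and 7.96) was above both backgrounds, and Hcls1 (6.00, 5.69 and 7.04) above the chemosensory one alone. Among megakaryocyte markers, Itga2b (5.60, 5.94 and 5.65) and Pf4 (4.92, 5.59 and 5.69) were not called, while Gp9 (6.17, 6.45 and 6.15) was. Neutrophil markers were called in 6 of 8 cases.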

How the data were processed

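The deposited table holds log2 expression values per probeset, which the authors made with Affymetrix Expression Console 1.1 and RMA, per the submitters' processing notes; the settings used are not given in the sources at hand. RMA makes the distributions of the 3 arrays alike (medians 5.20, 5.22 and 5.24), so a shift of all genes in one array could not be seen. Of 1256831 probesets, 318760 carry 1 gene symbol in the platform annotation. Symbols were brought up to date through RefSeq synonyms (GRCm38.p6), and probesets with several symbols were left out. An intercept-only model (limma 3.58.1, R 4.3.3) was run on each gene's value minus the array's threshold, and was tested on simulated data. The members and the gene lists were chosen with earlier results of these data known. Named genes were all 51 members and the defining markers that were measured. Of each further pathway list, up to 4 called genes with the largest margin and the gene with the smallest margin were named. C4a, C1s2, F13b, Thbd, Cd93, Vwf, Procr, Mertk, Mrc1, Ppbp, Ngp, Fcnb, Lcp2 and Hcls1 fall outside this rule. They were named after their values were seen. The 11 alternatives are given in the closing section. The chemosensory genes have a median of 5 probesets and the members 14. No scanner files were used, so scan batches and probe GC content were not examined, and the number of arrays limits the precision.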

Additional observations from a re-analysis of the deposited data

How the results depend on the processing

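Over the 11 alternatives, the count of members above background ran from 10 to 31, and only the 99th percentile of the background genes moved it by more than 1.5 times, to 10, with 4248 genes called over all. The count above the stricter background ran from 8, at the 99th percentile and with symbols not updated, to 14, at the 90th percentile and with the mean over probesets. Leaving out 1 array gave 18 to 23 members, 10 to 12 above the stricter background and 8689 to 9513 genes over all. At the 90th percentile 31 members were called, with at least 2 probesets per gene 16, and with symbols not updated 20 of the 49 members found. At the 99th percentile the mean of 7 called members fell below the threshold, with margins of -0.21 for C1qb, -0.34 for Cfp, -0.51 for Masp2, -0.60 for Mbl2, -0.36 for F12, -0.40 for Serpind1 and -0.25 for A2m. With the mean over probesets Mbl2 had -0.25. The higher threshold lowers every margin by construction; the cause of the change for Mbl2 was not tested. The 10 members above both backgrounds were called above the chemosensory background under every alternative that tested them. With at least 2 probesets per gene, F8 (adjusted p = 0.2, limma), Cfp (0.259), Masp2 (0.254), Mbl2 (0.573), Cd55 (0.0803), F12 (0.086) and Serpind1 (0.156) lost their calls. Masp2 (0.0923) and Serpind1 (0.399) also lost theirs with the mean over probesets, and F8 with symbols not updated (0.0532). No named probeset was at 0, so leaving out zeros changed nothing. No paired analysis was possible because there is 1 group. Signal near background limits what can be said of the genes not called.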
